A study of Mus musculus with 576 samples.

Results

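The nuclear-encoded respiratory chain subunits were taken as the protein-coding mouse genes whose symbol starts with Nduf, Uqcr, Cox4 to Cox8 or Atp5, or is Sdha, Sdhb, Sdhc or Sdhd. The rule found 93 of the 46078 genes in the deposited tables, and it used symbols alone, no measured value. Of these, 84 encode subunits and 9 are other genes that the symbols also catch, the complex I assembly factors Ndufaf1 to Ndufaf8 and Atp5s. Complex I has 36 of the members, complex II 4, complex III 8, complex IV 20 and ATP synthase 16. A mean of at least 10 reads per 1000000 gene reads (CPM) over the 6 groups was reached by 84 members, 75 of them subunits, and by 9744 genes in all.

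RNA was sequenced from single long-term haematopoietic stem cells of mouse bone marrow, sorted as CD150+CD48-cKit+Sca1+ cells, one per well of 96-well plates. They fall into 6 groups of 96 cells, by treatment (Ctrl or LPS_treated, where LPS is the bacterial lipopolysaccharide that innate immune receptors sense) and by the class of a p27 marker (p27_high, p27_low or p27_negative). The series asks how dormant and active stem cells differ, and p27 is an inhibitor of cyclin-dependent kinases found in resting cells. The strain, the number and age of the animals, and the LPS dose and time are not stated in the labels. Nor is how the p27 marker was made. Each group thus stands as 1 sample, and no test between groups could be run. Intervals of CPM below cover read counting only. Intervals of the share of cells with a read cover the sampling of cells within 1 sample, and neither kind covers animals.

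At least 50000 gene reads were present in 547 of the 576 cells, 84 to 95 per group, and the kept cells held 52163 to 1942773 gene reads each. Group medians ran from 224003 gene reads in control p27 low to 439918 in LPS p27 negative cells. The p27 negative group had the highest median in each treatment. The 8 stem cell markers summed to 608 to 1976 CPM with each of them above 1 CPM in some group, whereas 5 of 7 lymphoid and 4 of 5 stromal or endothelial markers stayed below 1 CPM in every group. The 9 neutrophil or monocyte markers, of which 1 stayed below 1 CPM, were highest in p27 high cells, at 1137 CPM in control (1063 CPM in p27 low, 689 CPM in p27 negative) and 810 CPM under LPS (598 and 461 CPM). Lyz2, a lysozyme of myeloid cells, gave 832 of the 1137 CPM. The 10 mitotic markers summed to 3754 CPM in control and 3474 CPM in LPS p27 negative cells but to 136 to 264 CPM in the other 4 groups. The 7 megakaryocyte or platelet markers ran from 257 CPM in LPS p27 high to 1495 CPM in control p27 negative cells, and the 6 erythroid markers from 40.3 to 662 CPM in those same groups. Car1, a carbonic anhydrase, gave 384 of the 662 CPM, and the other 5 erythroid markers summed to 278 CPM in control p27 negative and 283 CPM in control p27 low cells. The part of these differences in the results on respiratory genes was not tested. One control p27 negative cell had 97.9% mitochondrially encoded reads.

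The respiratory chain passes electrons from NADH (complex I) and succinate (complex II) through ubiquinone, complex III and cytochrome c to oxygen at complex IV, and ATP synthase uses the proton gradient so built to make ATP. All subunits of complex II and most subunits of the other complexes are encoded in the nucleus, made in the cytosol and imported, and a small set of core subunits is encoded by mitochondrial DNA. Haematopoietic stem cells at rest are known for low respiration and a reliance on glycolysis, and entry into the cell cycle is accompanied by higher mitochondrial activity.

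The 3 stretches of 250 bases shown here lie just upstream of a start site. Cox6b2 was chosen as the member with the widest gap between p27 classes. Cox6a1 was taken as the complex IV member whose window held the NRF1 motif described after the stretches, and Cox7a2l as the complex IV member that ran the other way. The stretches come from RefSeq on GRCm38.p6, 5′ to 3′ on the strand of the gene, and capitals mark matches to the motifs listed after them. The first lies at chr7:4753095-4753344 (minus strand), the second at chr5:115348959-115349208 (minus strand) and the last at chr17:83514334-83514583 (minus strand, inside the span of the GENCODE gene).
Cox6b2: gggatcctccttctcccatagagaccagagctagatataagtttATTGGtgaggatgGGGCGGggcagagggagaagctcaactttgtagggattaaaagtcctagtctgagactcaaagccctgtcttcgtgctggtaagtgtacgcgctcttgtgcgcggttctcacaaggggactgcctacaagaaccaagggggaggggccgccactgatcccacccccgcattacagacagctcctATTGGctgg
Cox6a1: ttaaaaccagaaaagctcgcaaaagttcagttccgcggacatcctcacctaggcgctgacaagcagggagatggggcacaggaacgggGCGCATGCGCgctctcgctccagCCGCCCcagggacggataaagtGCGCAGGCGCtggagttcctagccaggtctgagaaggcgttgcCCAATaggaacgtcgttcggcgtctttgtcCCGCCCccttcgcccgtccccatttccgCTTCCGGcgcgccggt
Cox7a2l: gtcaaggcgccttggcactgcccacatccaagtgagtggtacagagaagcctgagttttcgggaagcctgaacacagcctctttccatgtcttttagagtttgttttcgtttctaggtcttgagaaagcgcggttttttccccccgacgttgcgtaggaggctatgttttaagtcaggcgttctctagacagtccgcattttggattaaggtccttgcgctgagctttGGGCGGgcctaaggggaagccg

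The motifs searched on both strands were the 10-base palindrome-like core of NRF1 (nuclear respiratory factor 1), CCGGAAG (for ETS factors such as GABP), AAGATGG (YY1), GGGCGG (SP1), TGACGTCA (CRE) and CCAAT (NFY). Cox6a1 held NRF1 motifs starting 162 and 117 bases before its start site, the first of which reads the same on both strands, and an ETS motif 16 bases before it. Neither Cox6b2 nor Cox7a2l held an NRF1 or ETS motif in its printed stretch, and no 2 different motifs overlapped in the 3 stretches. A window of 300 bases, from 250 before to 50 after the start, was matched for 76 of the 93 members, 63 of them subunits that passed the 10 CPM filter. The NRF1 motif was found in 22.2% of those 63 windows and in 11.9% of the windows of all 7451 matched genes that passed the filter. The ETS motif was found in 23.8% against 21.4%, the YY1 motif in 15.9% against 8.15%, the CRE in 6.35% against 3.27%, the NFY motif in 41.3% against 38.9% and the SP1 motif in 39.7% against 65.99%. Where a gene had several start sites, its window was chosen by unlike rules. Members took the start site nearest the 5′ end of the annotated gene, and all genes the one of lowest coordinate. The latter is the most downstream one on the minus strand, so these shares are not strictly comparable. By complex, the NRF1 motif was present in 6 of 26 accessory complex I windows, 2 of 3 of complex II, 4 of 13 of ATP synthase, 1 of 11 of complex IV, 1 of 5 of complex III and 0 of 5 of the complex I core. For p27 high against negative cells in control, described next, the 14 subunits with the NRF1 motif had a median log2 fold of -0.53 and the 49 without it -0.34. The gap was of like size for the ETS motif (-0.52 with it, -0.35 without) and smaller for NFY (-0.39 and -0.35). It ran the other way for YY1 (-0.32 and -0.40), SP1 (-0.34 and -0.39) and the CRE, which 4 subunits held (-0.20 and -0.36). The part of the motifs in these differences was not tested.

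As a set, the 84 subunits took the smallest part of the RNA in p27 high cells and the largest in p27 negative cells, with and without LPS. Their summed level was 13791 CPM in control p27 high, 16218 CPM in control p27 low and 17688 CPM in control p27 negative cells, and 14013, 15328 and 16443 CPM in the same classes under LPS. Counting intervals were narrow (13742 to 13841 CPM in control p27 high cells), as each group held 299472 to 806018 subunit reads. They did not overlap between any of the groups, but with so many reads even small differences give separate intervals. They leave out the spread between cells and between animals. Single cells overlapped widely: the median share of a cell's gene reads was 1.33% (range 0.830% to 2.02%) in control p27 high and 1.72% (0.0150% to 3.80%) in control p27 negative cells, the lowest being the cell rich in mitochondrially encoded reads. Under LPS the medians were 1.40% in p27 high, 1.42% in p27 low and 1.61% in p27 negative cells. With every cell thinned to 50000 reads, a median of 62 of the 93 members had a read in control p27 high cells, 65 in p27 low and 71 in p27 negative cells, and 64, 65 and 72 under LPS. Within groups, the share of reads in nuclear subunits and the summed mitotic markers of a cell had a Spearman rho of -0.01 to 0.31 over 84 to 94 cells, a description of cells that come from 1 sample a group. The rho of the same share with the gene reads of a cell was -0.05 to 0.32.

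**Figure D1:**
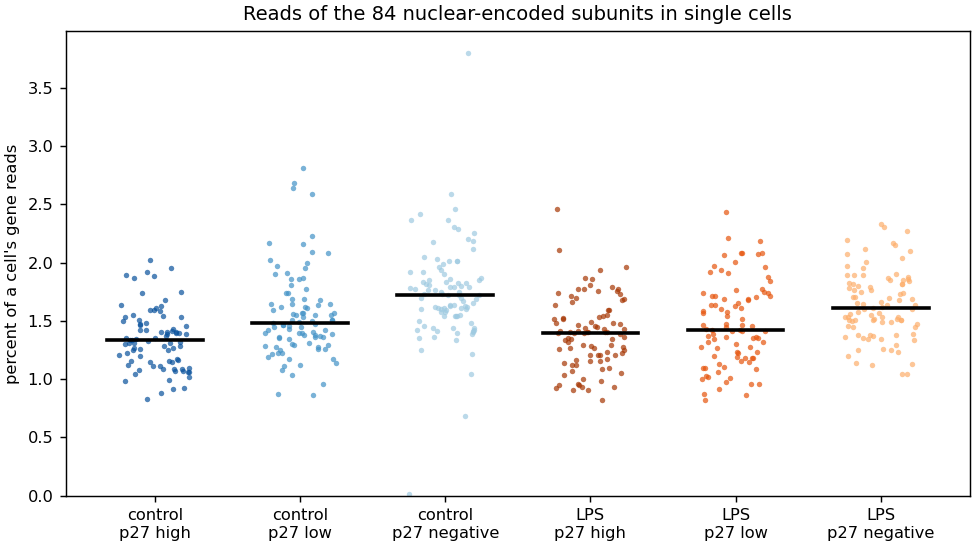
Percent of each cell's gene reads in the 84 nuclear-encoded subunits (y axis) for the 6 groups (x axis); each point is a cell with at least 50000 gene reads and each black line the group median. Among control cells the median is 1.33% in the p27 high class and 1.72% in the p27 negative class, and the clouds overlap.

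The sums by complex went up from p27 high through low to negative for each complex in control, and below, series of 3 values stand in that order. Complex I summed to 4054, 4696 and 5102 CPM in control and to 3958, 4329 and 4512 CPM under LPS. Complex II, the succinate dehydrogenase shared with the citric acid cycle, stood at 852, 935 and 996 CPM in control and 787, 799 and 984 CPM under LPS. Complex III summed to 1382, 1664 and 1758 CPM in control and was highest in p27 low cells under LPS, at 1500, 1750 and 1710 CPM. Complex IV, the cytochrome c oxidase, came to 1973, 2274 and 2635 CPM in control and 1997, 2175 and 2447 CPM under LPS. ATP synthase held the largest sum, 5530, 6648 and 7196 CPM in control and 5772, 6274 and 6791 CPM under LPS. The 9 assembly and other genes were flat by comparison, at 420, 461 and 442 CPM in control and 461, 432 and 398 CPM under LPS.

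**Figure D2:**
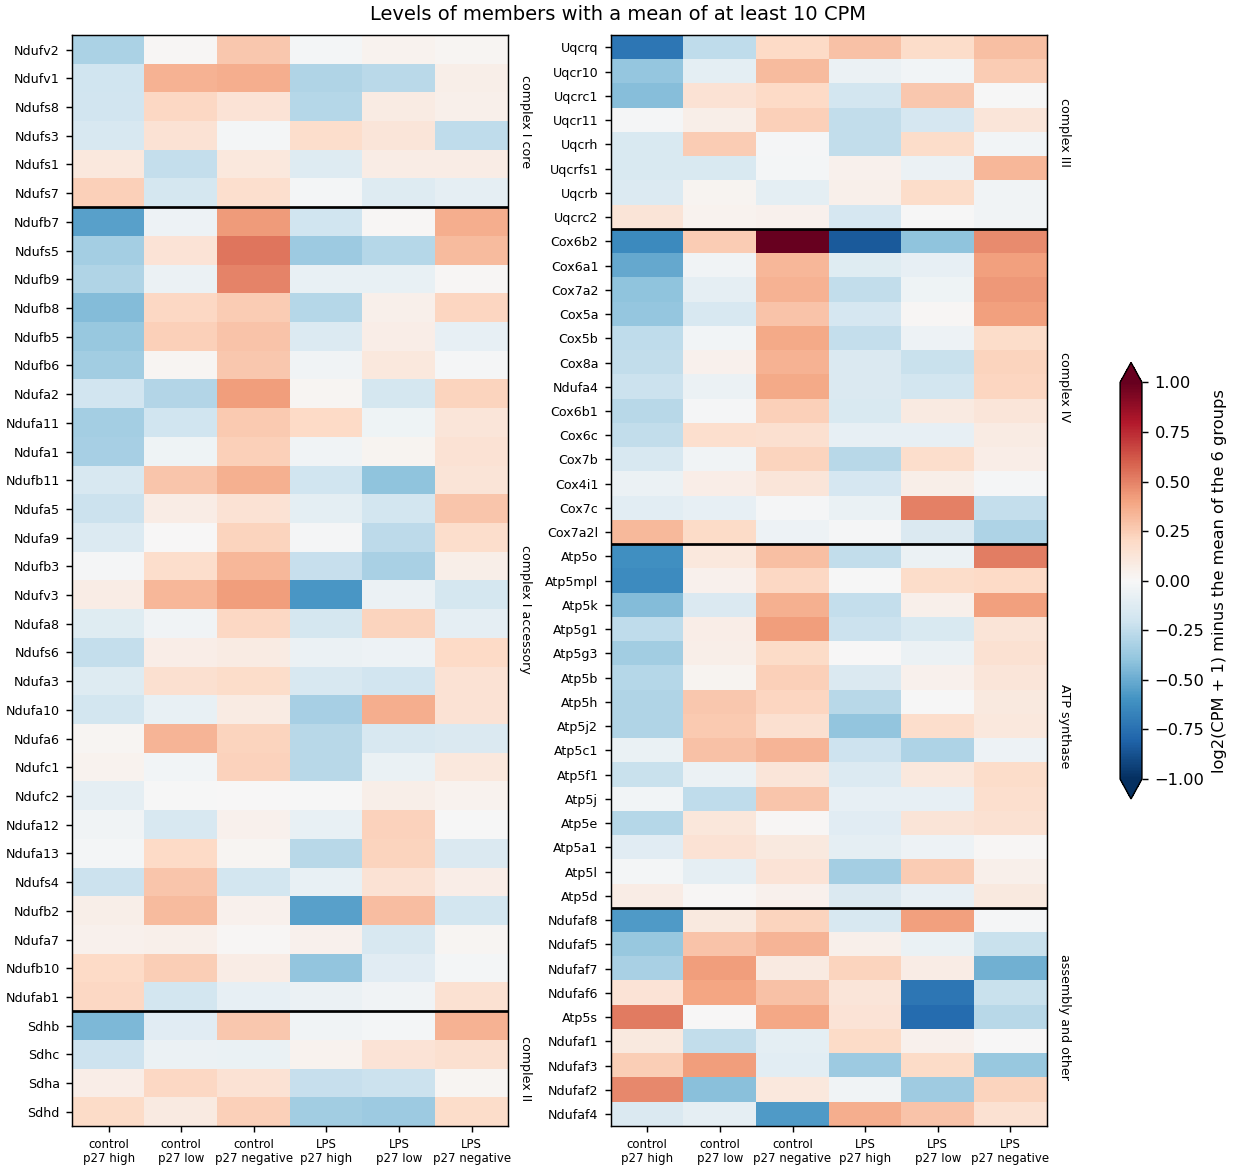
Levels of 83 of the 84 members with a mean of at least 10 CPM (rows, by complex and then by the control difference between p27 high and negative cells) in the 6 groups (columns), as log2(CPM + 1) minus the mean of the 6 groups; blue is lower and red higher, and the scale ends at -1 and 1. Control p27 high cells are mostly blue and control p27 negative cells mostly red, with Cox7a2l and several assembly factors as exceptions.

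Between p27 high and p27 negative cells in control, most members were lower in p27 high cells. A log2 fold here is the difference of log2(CPM + 1), and a difference of 0.5, or 1.41-fold, serves as a threshold of size, not as a test. Of the 84 members, 71 were lower and 13 higher, with a median of -0.34, while the median of all 9744 genes was 0.04. Past the threshold, 33 members were lower, against 20.1% of all genes, and 0 were higher, against 25.2% of all genes. Complex IV had the lowest median, -0.60, with 8 of 13 members past the threshold, followed by ATP synthase at -0.46 with 7 of 15. Accessory complex I subunits had a median of -0.34 (10 of 28 past the threshold), complex III -0.20 (3 of 8), the complex I core -0.14 (2 of 7) and complex II -0.11 (1 of 4). The assembly and other genes had a median of 0.13, but its sign turned when cells were weighted equally, to -0.047. Counted per spike-in read, a scaling that moved the median of all genes to -0.38, all 84 members were lower, and relative to that shift the members' median was -0.39.

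Cox6b2, a cytochrome c oxidase subunit 6B isoform best known from testis (chromosome 7, 4751792 to 4753094, minus strand), had the widest gap. It stood at 17.4 CPM (15.7 to 19.2) in control p27 high, 32.9 CPM (30.9 to 35.03) in control p27 low and 62.5 CPM (60.2 to 65) in control p27 negative cells. Under LPS it was 14.9 CPM (13.6 to 16.3) in p27 high, 20.6 CPM (18.9 to 22.3) in p27 low and 38.6 CPM (36.9 to 40.4) in p27 negative cells. The order of the classes was the same in both treatments, and the log2 fold of p27 high against negative was -1.79 in control and -1.32 under LPS. After thinning to 50000 reads, 29.8% of control p27 high cells had a Cox6b2 read (95% Clopper-Pearson interval 20.3% to 40.7%), against 69.5% of control p27 negative cells (59.2% to 78.5%), and under LPS the shares were 18.3% (11.02% to 27.6%) and 57.6% (46.9% to 67.9%). One cell gave 24.9% of the reads in control p27 high cells, and leaving out the highest cell of each group gave a log2 fold of -1.88 in control.

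Cox6b1, the broadly used form of the same subunit, was higher than Cox6b2 in each group but less different between classes. Its level was 150.2 CPM in control p27 high, 180.7 in p27 low and 215 CPM in p27 negative cells, and 165, 194 and 199 CPM under LPS, a log2 fold of -0.52 in control and -0.27 under LPS. Per kilobase of transcript, Cox6b2 had 37.3 CPM and Cox6b1 243 CPM in control p27 high cells, and 135 and 348 CPM in control p27 negative cells. Of the other complex IV members, Cox6a1 stood at 127, 178 and 229 CPM in control (log2 fold -0.84), and at 167, 171 and 242 CPM under LPS (-0.53). Cox7a2, a small structural subunit, was at 63.9, 79.4 and 107.7 CPM in control (-0.75) and 71.2, 82.3 and 115 CPM under LPS (-0.68). Cox8a stood at 239, 292 and 362 CPM in control (-0.60), and Ndufa4, once assigned to complex I and now placed with complex IV, at 185, 206 and 280 CPM (-0.60). Cox4i1, the main form of the subunit 4, differed little, at 626, 685 and 709.9 CPM in control (-0.18).

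Cox7a2l (chromosome 17, 83501918 to 83517330, minus strand), a Cox7a relative that joins complexes III and IV into supercomplexes, had the opposite order. It was at 186 CPM (181 to 192) in control p27 high, 170 CPM (165 to 175) in p27 low and 144 CPM (140.02 to 147) in p27 negative cells, and at 148, 134 and 119.5 CPM under LPS. Both treatments thus showed the highest level in p27 high cells, with log2 folds of 0.37 in control and 0.30 under LPS, below the threshold of size and turning to -0.06 and -0.50 when counted per spike-in read. A read was found in 95.2% of control p27 high and 91.6% of control p27 negative cells after thinning. It was the only complex IV member of 13 that passed the filter with a higher level in control p27 high than negative cells.

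**Figure D3:**
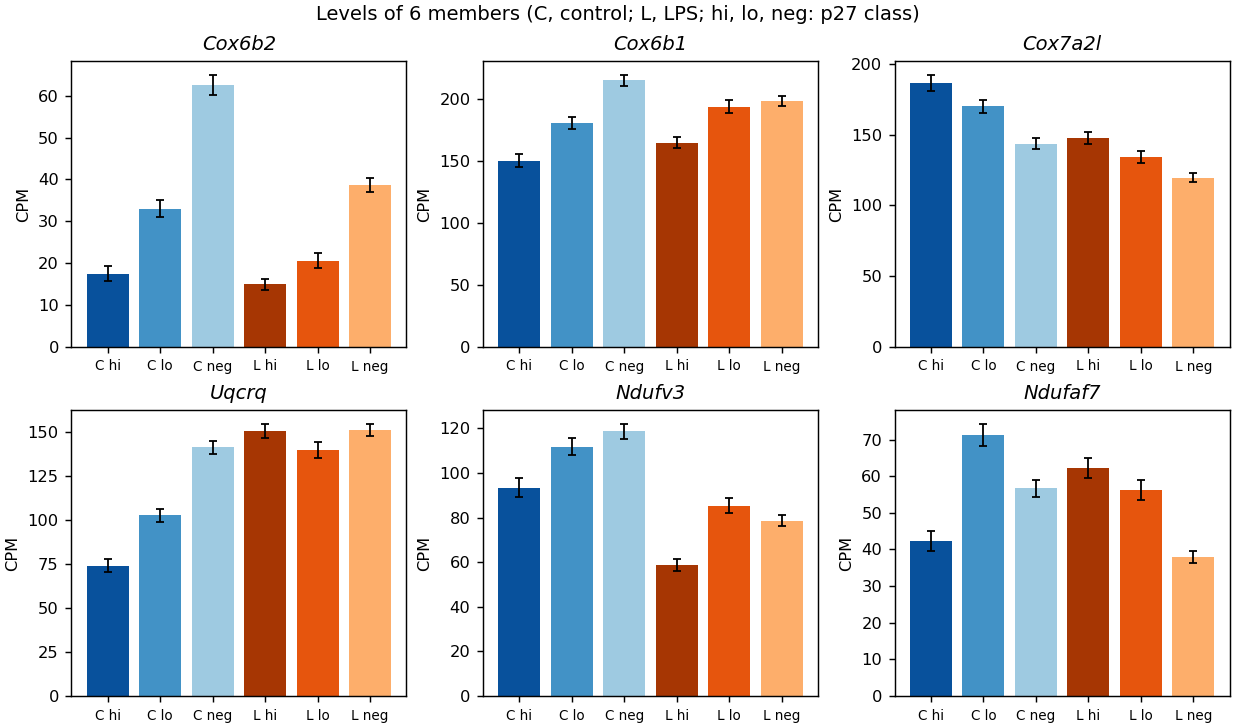
Levels in CPM (y axes, each from 0) of 6 members in the 6 groups (x axes; C, control; L, LPS; hi, lo and neg, p27 class); bars are summed levels and error bars the 95% Poisson intervals of the reads. Cox6b2 goes from 17.4 to 62.5 CPM across the control classes, Cox7a2l the other way, and Uqcrq differs between the 2 p27 high groups.

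In ATP synthase, Atp5o, which encodes the OSCP stalk subunit, stood at 97.4, 161 and 184 CPM in control and at 126, 143 and 214 CPM under LPS. The log2 folds of p27 high against negative were -0.91 and -0.76, but 50.3% of the 50-base stretches of its transcript also occur in other genes and 47.9% of its exon bases overlap other genes. Atp5mpl, a small subunit of the membrane part (also called 6.8 kDa proteolipid), was at 82.8, 133 and 149 CPM in control (-0.84). Under LPS it reached 128 CPM in p27 high cells, near the 146 and 148 CPM of the other classes. Atp5k, subunit e of the membrane part, was at 17.8, 21.98 and 31.4 CPM in control and 20.5, 25.3 and 32.7 CPM under LPS, with a log2 fold of -0.65 under LPS. Atp5b, the catalytic beta subunit and the most abundant member per kilobase, stood at 1927, 2399 and 2779 CPM in control and 2126, 2426 and 2551 CPM under LPS, with the same order of classes.

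Of the genes for subunit c, the ring that turns with proton flow, Atp5g3 carried most of the reads, at 165, 219 and 239 CPM in control (log2 fold -0.53) and 211, 201 and 233 CPM under LPS (-0.14). Atp5g1 was at 17.5, 22.05 and 28.4 CPM in control (-0.67) and 17.99, 18.8 and 22.99 CPM under LPS (-0.34). Atp5g2 did not pass the filter, at 3.06 to 5.998 CPM. The transcript of Atp5g2 shares all of its 50-base stretches with other genes and that of Atp5g1 65.996%, so the levels of both are uncertain, whereas Atp5g3 shares none.

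In complex I, the largest differences were in accessory subunits. Ndufb7 (log2 fold -0.97) stood at 82.7, 117 and 163 CPM in control and at 105, 122 and 156 CPM under LPS (-0.56). Ndufs5 was at 9.26, 13.3 and 17.9 CPM in control (-0.88) and 9.10, 9.68 and 15.2 CPM under LPS (-0.68), low levels with 41.2% of its 50-base stretches found in another gene. Both showed p27 negative cells highest in each treatment. In the core, which carries the flavin and iron-sulfur centres, Ndufv2 was at 224, 282 and 338 CPM in control (-0.59) and Ndufv1, the NADH-binding subunit, at 209, 306 and 309 CPM (-0.56). Under LPS Ndufv1 was at 195, 199.7 and 251 CPM (-0.36), and Ndufs3 ran the other way, at 65.1, 62.9 and 48.1 CPM (0.43). Of the 50-base stretches of Ndufs3, 39.7% occur in other genes.

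In complex II, Sdhb, the iron-sulfur subunit, was at 164, 207 and 271 CPM in control (log2 fold -0.72) and at 219, 221 and 286 CPM under LPS (-0.38). Sdhd, a membrane anchor, differed little between the control classes, at 175, 163 and 180.5 CPM, but was at 120.1, 119.1 and 174 CPM under LPS (-0.53). In complex III, Uqcrq, a small subunit beside cytochrome b (chromosome 11, 53427922 to 53430831, minus strand), was at 74.01 CPM (70.4 to 77.7) in control p27 high, 103 CPM (99.2 to 106) in p27 low and 141 CPM (138 to 145) in p27 negative cells (-0.93). A read was found in 69.05% of control p27 high and 93.7% of control p27 negative cells after thinning. Uqcr10 followed the same order, at 80.8, 99.1 and 132 CPM in control (-0.71) and 102, 104 and 127 CPM under LPS (-0.32), and Uqcrc1, a core protein, was at 415, 616 and 641 CPM in control.

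The other p27 comparisons gave smaller differences. In control, p27 high against low cells had a median over members of -0.26, with 68 of 84 lower, where all genes had a median of 0.00. Past the threshold 12 were lower and 2 higher, against 18.7% and 20.5% of all genes. Among the lower ones were Cox6b2 (-0.89), Atp5o (-0.72) and Ndufb8 (-0.64), and among the higher ones Ndufaf2 (0.91), an assembly factor whose exons overlap other genes over 65.6% of their bases. Control p27 low against negative cells had a median of -0.13, with 61 lower; 5 were past the threshold lower and 1 higher, against 17.6% and 23.1% of all genes, or 5.95% and 1.19% of the members. Atp5j (-0.53), Ndufa2 (-0.71) and Cox6b2 (-0.91) were among the 5.

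Under LPS, p27 high against negative cells again had most members lower: 70 lower and 14 higher, with a median of -0.23 against 0.06 for all genes. Past the threshold, 9 were lower and 1 higher, against 17.4% and 24.4% of all genes, or 10.7% and 1.19% of the members. All 15 ATP synthase members that passed the filter were lower, with a median of -0.27; complex IV had a median of -0.35 (4 of 13 past the threshold) and complex II -0.32 (1 of 4). The assembly and other genes had a median of 0.21, with Ndufaf7 at 0.70 and Ndufaf6 at 0.34; per spike-in read their median was -0.59. Whether the difference between p27 classes differed between control and LPS was not tested. For p27 high against low under LPS the median was -0.08 (9 lower and 2 higher past the threshold, against 15.6% and 23.5% of all genes), and for p27 low against negative -0.10 (6 lower and 3 higher, against 19.4% and 18.9%). Per spike-in read, the split of lower and higher members was 81 and 3 for control p27 low against negative (by CPM 61 and 23), and under LPS 84 and 0 for high against negative, 40 and 44 for high against low (by CPM 59 and 25) and 84 and 0 for low against negative (by CPM 54 and 30). In p27 high against low cells under LPS, Ndufb2 (-0.85), Atp5l (-0.59) and Cox7c (-0.56) were lower in p27 high cells. The last 2 have over 50% of their 50-base stretches in other genes, and Ndufb2 has 33.5%.

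**Figure D4:**
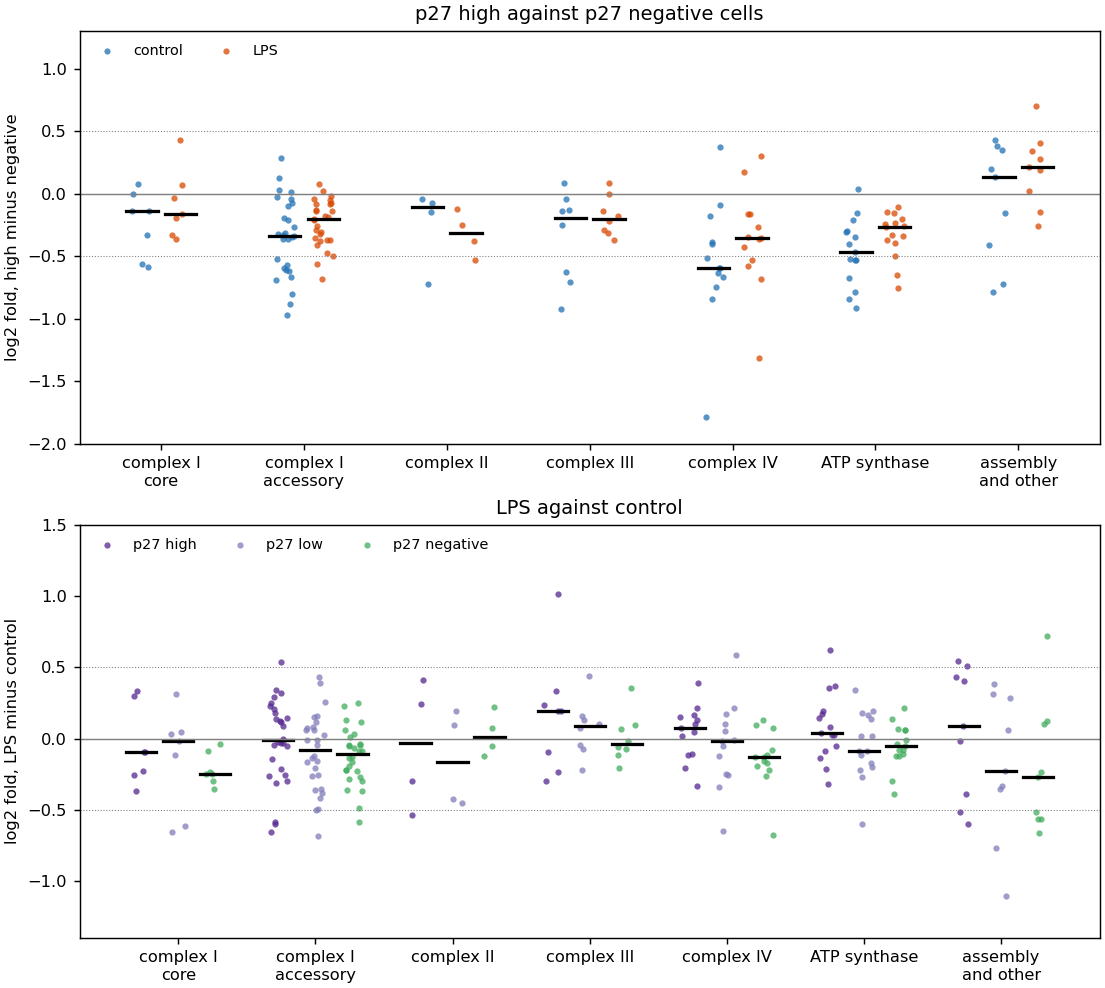
Log2 fold (y axes) of each of the 84 members by complex (x axes): top, p27 high minus p27 negative in control and LPS; bottom, LPS minus control in the 3 p27 classes. Black lines are medians, dotted lines the threshold of 0.5; in the top panel the complex IV and ATP synthase medians for control lie at -0.60 and -0.46, and in the bottom panel medians lie between -0.27 (assembly and other genes, p27 negative) and 0.19 (complex III, p27 high).

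LPS against control gave medians over all members of -0.10 to 0.04 in the 3 p27 classes, while complexes and single members were higher or lower. In p27 high cells the median was 0.04, with 38 members lower and 46 higher (24 and 60 with TMM factors), where all genes had a median of -0.09. Past the threshold 6 were lower and 5 higher, against 27.4% and 17.2% of all genes. In p27 low cells the median was -0.03, with 47 lower and 37 higher (30 and 54 with TMM factors), where all genes had -0.17, and 8 were lower and 1 higher past the threshold, against 32.4% and 15.7%. In p27 negative cells the median was -0.10, with 61 lower and 23 higher (36 and 48 with TMM factors), where all genes had -0.13, and 6 were lower and 1 higher past the threshold, against 25.2% and 13.6%. By complex, the lowest medians were -0.27 and -0.23 for the assembly and other genes in p27 negative and p27 low cells. Among the lowest was also -0.25 for the complex I core in p27 negative cells, with 7 of 7 members lower and 0 past the threshold. In that comparison 59.7% of all genes were lower. The highest median was 0.19, for complex III in p27 high cells, with 5 of 8 higher, where 4290 of 9744 genes were higher. The sign of the members' median in p27 low and negative cells thus turned with the scaling. Per spike-in read every group under LPS was higher: all genes shifted by 1.32, 1.08 and 1.66, and the members' medians were 1.46, 1.23 and 1.70, or 0.14, 0.15 and 0.03 above that shift.

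Uqcrq had the largest LPS difference in p27 high cells, 74.01 CPM in control against 151 CPM (147 to 155) under LPS, a log2 fold of 1.02. Under LPS its level was 151, 139.8 and 151 CPM over the 3 classes, without the order seen in control. Atp5mpl was also higher under LPS in p27 high cells (0.63). Ndufv3, an accessory subunit beside the NADH site, was lower under LPS in each class: 93.4 against 58.8 CPM in p27 high (-0.66), 112 against 85.4 CPM in p27 low and 119 against 78.6 CPM in p27 negative cells (-0.59). Sdhd was lower under LPS in p27 high cells (-0.54). Cox6b2 was lower under LPS in p27 low (-0.65) and p27 negative cells (-0.68), and Atp5c1, the rotating gamma subunit, in p27 low cells (-0.60). Counted per spike-in read, each of these lower values given with a fold turned higher.

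Among the assembly factors, which build complex I but are not part of it, Ndufaf6 was at 40.6 CPM in control and 18.3 CPM under LPS in p27 low cells (-1.11), with 1 cell giving 23.4% of the control reads. Ndufaf4 was at 52.02 CPM in control and 86.4 CPM under LPS in p27 negative cells (0.72), and at 70.3 and 100.4 CPM in p27 high cells. Ndufaf3 was lower under LPS in p27 high cells, at 41.5 against 26.9 CPM (-0.60). Atp5s, caught by its symbol and not a complex I assembly factor, was at 31.2 CPM in p27 high and 16.3 CPM in p27 low cells under LPS (0.90). A Ndufaf6 read was found in 16.1% to 25% of cells per group after thinning, so its values rest on few cells.

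Apart from Cox6b2, few reads were found of the tissue-restricted forms of complex IV subunits. Cox4i2, the oxygen-responsive form of subunit 4, was at 3.56 to 11.5 CPM, against 581 to 709.9 CPM for Cox4i1, and 1 cell gave 72.9% of its reads in control p27 low cells. Cox7a1, the form of heart and skeletal muscle, was at 1.34 CPM in control p27 high cells and at 0 to 0.551 CPM elsewhere. Cox6a2, also of muscle, had 33 reads in LPS p27 high cells, 57.6% of them in 1 cell, 2 reads in LPS p27 negative cells and 0 in the other 4 groups. Ndufa4l2 had 1 read in each of the p27 high groups, and Cox7b2, Cox8b and Cox8c had 0 reads, which allows up to 0.0612 to 0.138 CPM depending on the group (3 reads).

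Per kilobase, the members of one complex did not sit at one level. Among the members that passed the filter, averaged over the 6 groups, ATP synthase ran from 30.1 (Atp5l) to 1236 (Atp5b) CPM per kilobase with a median of 296, and complex IV from 44.2 (Cox7c) to 879 (Cox4i1) with a median of 186. Complex III ran from 88.7 (Uqcrb) to 342 (Uqcrc1), the complex I core from 43.2 (Ndufs1) to 394 (Ndufs7), accessory complex I from 23.6 (Ndufs5) to 407 (Ndufb9) and complex II from 31.3 (Sdhc) to 199.7 (Sdhb). Below the filter, Atp5g2 was at 10.7 and Ndufb4, an accessory subunit of complex I, at 9.13 CPM per kilobase. The 9 assembly and other genes were at 19.96 to 57.8 CPM per kilobase. Low levels stood with shared sequence among the subunits with over 100 reads: the 47 with under 10% of their 50-base stretches in other genes had a median of 183 CPM per kilobase, the 25 with 10 to 50% 140, and the 6 with 50% or more 39.95. Atp5l shares 84.8% of its stretches with 14 genes. The 11 annotated pseudogenes named after members together held reads equal to 0.466% of those of the members.

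The 13 mitochondrially encoded subunits did not follow the same order, at 21972, 19424 and 23539 CPM in control and 19718, 18123 and 17377 CPM under LPS. Without the cell of 97.9% mitochondrially encoded reads, control p27 negative cells stood at 20129 CPM, below the p27 high class, and the median share of a cell's reads was 2.19%, 1.90% and 2.03% in control with that cell included. The ratio of nuclear to mitochondrially encoded subunit reads was 0.628, 0.835 and 0.751 in control (0.887 for the last without that cell) and 0.711, 0.846 and 0.946 under LPS.

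Related pathway genes were counted in the same way for control p27 high against negative cells. Of 7 electron carriers and associated proteins that passed the filter, 6 were lower and 5 past the threshold, with a median of -0.52, among them Cyc1, the cytochrome c1 of complex III (-0.58), and Slc25a5, an ADP/ATP carrier (-0.52). Of 14 citric acid cycle genes, 12 were lower and 4 past the threshold (median -0.31), with Fh1 at -1.06. Of 15 protein import genes, 11 were lower, 4 past the threshold lower and 1 higher (median -0.17). Of 11 regulators of mitochondrial genes, 5 were lower, 3 past the threshold lower and 1 higher (median 0.01), with Nrf1 at -0.71 and Tfam at 0.31. Of 27 other assembly factors, 9 were lower, with 4 past the threshold each way (median 0.09), and of 11 coenzyme Q genes 5 were lower, with 1 past the threshold lower and 4 higher (median 0.34). Against 20.1% of all genes past the threshold lower, the shares of the 6 lists in the order given were 71.4%, 28.6%, 26.7%, 27.3%, 14.8% and 9.09%. By this share alone, the citric acid cycle, import, regulator and other assembly lists stood near the background. By median, the citric acid cycle (-0.31, 12 of 14 lower) and import lists (-0.17, 11 of 15 lower) lay below all genes. All genes had a median of 0.04 with 47.3% lower, and the respiratory members -0.34 with 84.5% lower. Higher past the threshold were 25.2% of all genes and 36.4% of the coenzyme Q list. Under LPS the medians of these 6 lists were -0.36, -0.01, -0.15, -0.38, -0.01 and -0.06.

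The median profile of the 75 subunits over the 6 groups, as log2 level minus the mean, was -0.19, 0.04 and 0.21 in control and -0.15, -0.03 and 0.10 under LPS. The genes of the whole table most like it by Pearson r over the 6 groups were Pds5b (0.99), Rogdi (0.99), Cep83 (0.99), Ndufs6b (0.98) and Adk (0.98), and among members Cox5b (0.98) and Atp5b (0.97). Ndufs6b is an annotated pseudogene named after the member Ndufs6, and whether its reads come from that member was not tested. Members had a median r of 0.69 with the profile, which their own values make, against -0.03 over all genes. In single cells of 1 group, the shares of reads in complex I and complex IV had a Spearman rho of 0.33 to 0.61 over 84 to 94 cells, a description in which both shares have the same denominator.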

How the data were processed

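Single-cell RNA-seq reads were counted per gene by the authors, who deposited raw counts in 2 tables, 1 for control and 1 for LPS cells, whole numbers without any normalization. Per the submitters' processing notes, GSNAP, HTSeq 0.6.0 and mm10 were used; annotation release and strand setting are not stated there, so overlapping genes cannot be told apart by strand. The libraries have no molecular identifiers. Of all reads, 34.1% lay in genes, 2.06% in 92 spike-ins, and the 5 entries that name no gene (52.7% not aligned, 6.86% in no feature, 4.28% ambiguous) were left out.

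Symbols came from GENCODE M21 by gene ID, which named 45143 of 46078 genes; 1 of 94 annotated IDs, a second Atp5o entry, was not used here. Reads of cells with at least 50000 gene reads (547 of 576, 29 removed) were summed per group, scaled to CPM and compared as log2(CPM + 1) over genes with a mean of at least 10 CPM, in 9 comparisons. Doublets were not called. Poisson and Clopper-Pearson intervals are exact, at 95%. Thinning drew 50000 reads per cell without replacement. Shared sequence is the percent of 50-base stretches of 1 transcript found in transcripts of other genes. The fold code was tested on simulated data.

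The members, gene lists and thresholds were chosen with earlier results of these data known. Named members are, per complex, the 2 with the largest absolute fold (same sign as the mean of per-cell CPM) for p27 high against negative and the 1 for other comparisons, the isoform families, members with opposite LPS effects, and the 5 genes most like the median profile (some single-gene results are not reported here); Atp5b, Cox5b and the examples from other pathway lists were chosen after their values were seen. Alternatives were other scalings (TMM, spike-in reads, mean of cells, totals without mitochondrially encoded genes), other cell and gene filters, 5 CPM added, and leaving out the top cell. Software was Python 3.11.15, numpy 2.4.6, pandas 2.3.3, scipy 1.17.1, matplotlib 3.10.9 and, for TMM factors, R 4.3.3 with edgeR 4.0.16.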

Additional observations from a re-analysis of the deposited data

Results flagged for a closer look

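Ndufaf7, a methyltransferase that acts on complex I during assembly, had LPS effects past the threshold of size in opposite directions: a log2 fold of LPS against control of 0.54 in p27 high cells (42.3 against 62.1 CPM) and of -0.57 in p27 negative cells (56.7 against 37.9 CPM). In p27 low cells it was at 71.3 CPM in control and 56.2 CPM under LPS. Each group is 1 sample, so the difference between the classes was not tested. A Ndufaf7 read was found in 27.4% of control and 34.4% of LPS p27 high cells after thinning (intervals 18.2% to 38.2% and 24.9% to 44.98%), and in 37.9% and 40.2% of p27 negative cells, where the share of cells was thus not lower under LPS. Per spike-in read the p27 negative value was 1.22.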

How the results depend on the processing

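No paired analysis was possible because the numbers 1 to 96 in the labels only number cells, and no test between groups was run. Leaving out a replicate was not possible with 1 sample a group. Of 93 recomputed medians 80 stayed within the interval of the median over members, 8 left it and 5 changed sign. That interval comes from the spread between members, which are not replicates, so it serves as a yardstick of size and not as a test. Of 93 recomputed counts 73 stayed within 1.5 times. Of 752 recomputed folds of named members 11 changed sign past the threshold, each per spike-in read. The cause of the shifts was not tested; spike-in reads were 2.23% to 10.7% of gene reads and differed between treatments. In the order control high against negative, high against low, low against negative, then the same under LPS, then LPS against control in the same order of classes, the medians per spike-in read were -0.77, -0.33, -0.50, -1.03, 0.0129, -0.997, 1.46, 1.23 and 1.70, where the medians of all genes were -0.38, -0.07, -0.30, -0.73, 0.15, -0.87, 1.32, 1.08 and 1.66. Counts past the threshold were then 65, 41, 79, 5, 79, 84, 82 and 84 for all but control high against low. TMM factors gave medians of -0.31 for LPS high against negative and 0.17, 0.13 and 0.0217 for LPS against control, with a count of 3 in p27 negative cells. Weighting cells equally gave counts of 9 (control high against low), 7 (LPS high against low), 6 and 4 (LPS against control, p27 high and negative). Adding 5 CPM gave 7 for LPS high against low, leaving out the top cell 7 for LPS against control in p27 high cells, and cells with at least 200000 reads 15 in p27 low cells. Subunits alone, a smaller list, gave 9, 7, 7 and 2 for control high against low, LPS high against low, and LPS against control in p27 high and negative cells. The median of the assembly and other genes for p27 high against negative in control turned to -0.0473 with cells weighted equally, -0.11 without the top cell and -0.29 per spike-in read, and under LPS to -0.59 per spike-in read. Per spike-in read 19 of 94 named folds had the other sign, and the 11 of them past the threshold by CPM were Ndufaf7 (-0.0915, LPS high against negative), Ndufv3 (0.77), Sdhd (0.90) and Ndufaf3 (0.80) for LPS in p27 high cells, Ndufb11 (0.58), Cox6b2 (0.58), Atp5c1 (0.68) and Ndufaf6 (0.13) in p27 low cells, and Ndufv3 (1.22), Cox6b2 (1.11) and Ndufaf7 (1.22) in p27 negative cells. Leaving out the cell with 97.9% mitochondrially encoded reads, chosen after seeing the data, gave 33 and 7 for control high and low against negative and 8 for LPS against control in p27 negative cells. Depth limits rare members: a count of 0 allows up to 0.0612 to 0.138 CPM.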
